A study of Mus musculus with 4 samples.

Results

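The crypt base columnar stem cells of the small intestine are recognised by a set of genes that sit around Lgr5, and 10 of these are described here: Olfm4, Slc12a2, Ascl2, Smoc2, Axin2, Sox9, Prom1, Lrig1, Cdca7 and Igfbp4. They were chosen by name, as array features whose annotation gave exactly 1 gene symbol. All 10 were found, each with 1 feature, among 30726 named genes. Their levels were read on 4 whole-transcript arrays (Clariom D mouse), with 1 array for each group of cells.

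Every group came from 8-week-old Lgr5GFP-CreERT2 mice, a reporter line in which Lgr5 drives GFP and an inducible Cre, and the cells were sorted from the small intestine. The Non-ISC group was wild-type and GFP-negative. The ISC group was wild-type and GFP-positive. The other two groups were also labelled GFP-positive: LncGata6 mut ISCs, in which the long noncoding RNA LncGata6 is mutated, and Ehf knockout (Ehf-/-) ISCs, which lack an ETS transcription factor of epithelia. The sort recorded for all 4 samples is of ILCreg cells, an innate lymphoid type, so the gate is uncertain, and whether animals were pooled is not given in the sources used here. With no replicates there is no estimate of error, no test and no p-value, and precision is limited by having 1 array a group.

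Stem cells at the crypt base divide under Wnt signals from Paneth cells and from the surrounding stroma. Wnt signalling stabilises beta-catenin, which joins TCF factors on target genes such as Axin2, Ascl2, Sox9 and Lgr5 itself. As daughter cells leave the base they lose these transcripts and become absorptive or secretory cells. Several of the markers are also made elsewhere: Sox9 in Paneth cells, Prom1 and Igfbp4 in other organs, and Olfm4 in granules of some neutrophils.

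Levels are the authors' values on the log2 scale, so a difference of 1 is 2-fold. A value was read as detected at or above the 95th percentile of the negative control features on its array, which was 5.16 (Non-ISC), 5.62 (ISC), 5.31 (LncGata6 mut) and 5.19 (Ehf knockout). A gene was called higher or lower when 2 arrays differed by at least 1 and the brighter value reached the 75th percentile of the genes on its array (4.60 on the Ehf knockout array to 5.26 on the Non-ISC array). Folds are brighter over dimmer, and where the dimmer value was not detected the control limit replaced it and the fold is a lower bound, given as "at least".

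Before the markers, the labelled cell types were checked. Lgr5, the receptor gene that drives the GFP used for sorting, was at 9.41 on the ISC array. It was at 3.03, 3.03 and 2.79 on the Non-ISC, LncGata6 mut and Ehf knockout arrays, so both mutant arrays lacked detectable Lgr5. Ehf was detected on the ISC array alone (6.99) and read 3.03 on the Ehf knockout array. Gata6os, taken as the LncGata6 gene, was detected on no array (4.92 on ISC, 4.37 on LncGata6 mut). Its feature therefore cannot check the LncGata6 label. All 14 general epithelial genes were detected on the Non-ISC, ISC and LncGata6 mut arrays and 0 of 14 on the Ehf knockout array, where their median was 3.63 and the highest was 4.78. On that array all 8 neutrophil genes (median 10.13) and all 8 macrophage genes (7.53) were detected, with S100a9 at 11.67. The Non-ISC array held all 7 measured liver genes (median 10.89, led by Alb at 12.52) and 7 of 8 kidney genes (9.43, led by Kap at 12.30), of which none was detected on the other arrays. The LncGata6 mut array had the highest enterocyte median (10.64) and 7 of 8 detected T and innate lymphoid genes, with Gzma at 11.47. Paneth cell genes were highest on the ISC array, with all 6 detected at a median of 10.27, against 8.43 on the LncGata6 mut array.

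**Figure D1:**
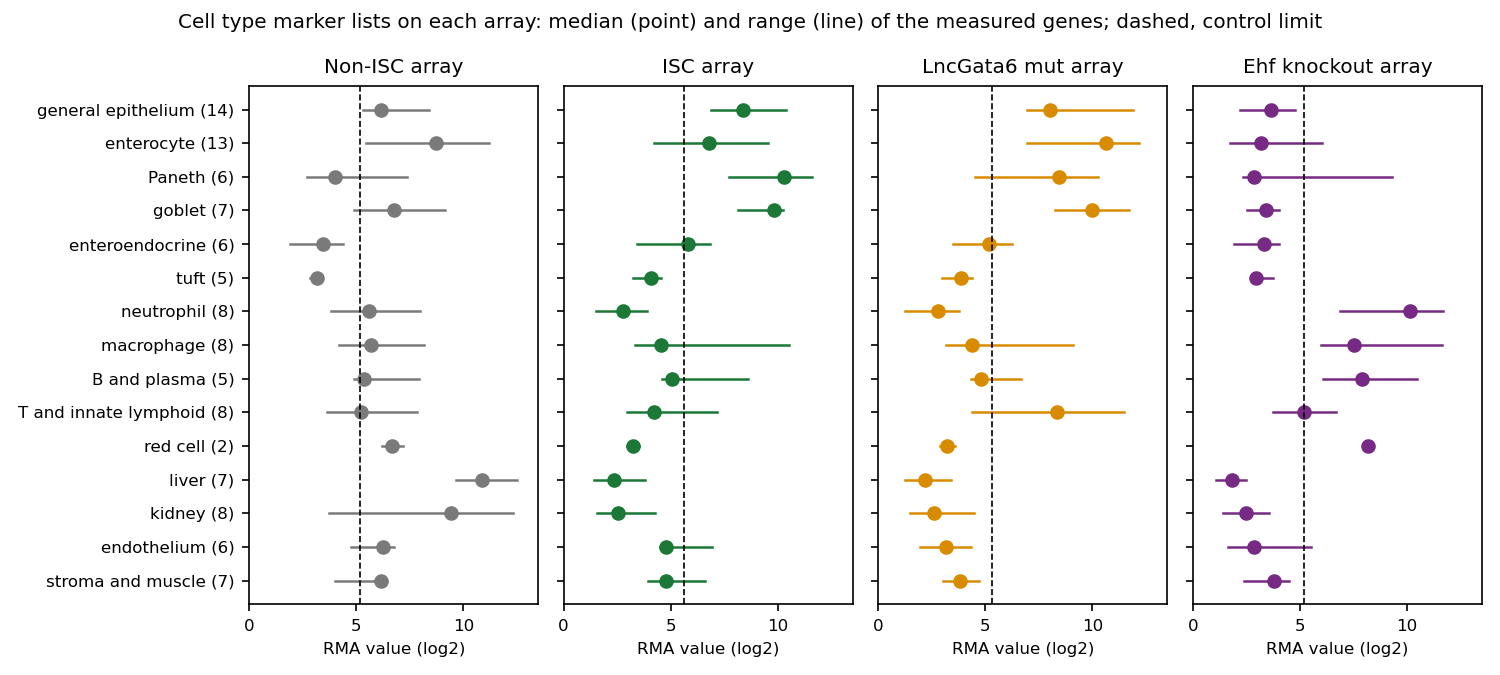
Median (point) and range (line) of the log2 values of cell type marker genes on each array, with the number of measured genes in brackets; the dashed line is the 95th percentile of negative controls. The medians of the epithelial lists lie under the line on the Ehf knockout array, where the neutrophil median is 10.13, and liver and kidney genes stand out on the Non-ISC array.

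Across the 4 arrays, 9 of the 10 markers had their highest value on the ISC array, and Igfbp4 on the Non-ISC array. Detection followed the same order: 8 markers were detected on the ISC array, 4 on the Non-ISC array, 3 on the LncGata6 mut array and 2 on the Ehf knockout array. The lowest value of 6 markers was on the Ehf knockout array. Ascl2 and Smoc2 were detected on no array. In sorted pools such as these, fewer cells of a type and less RNA per cell cannot be told apart.

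**Figure D2:**
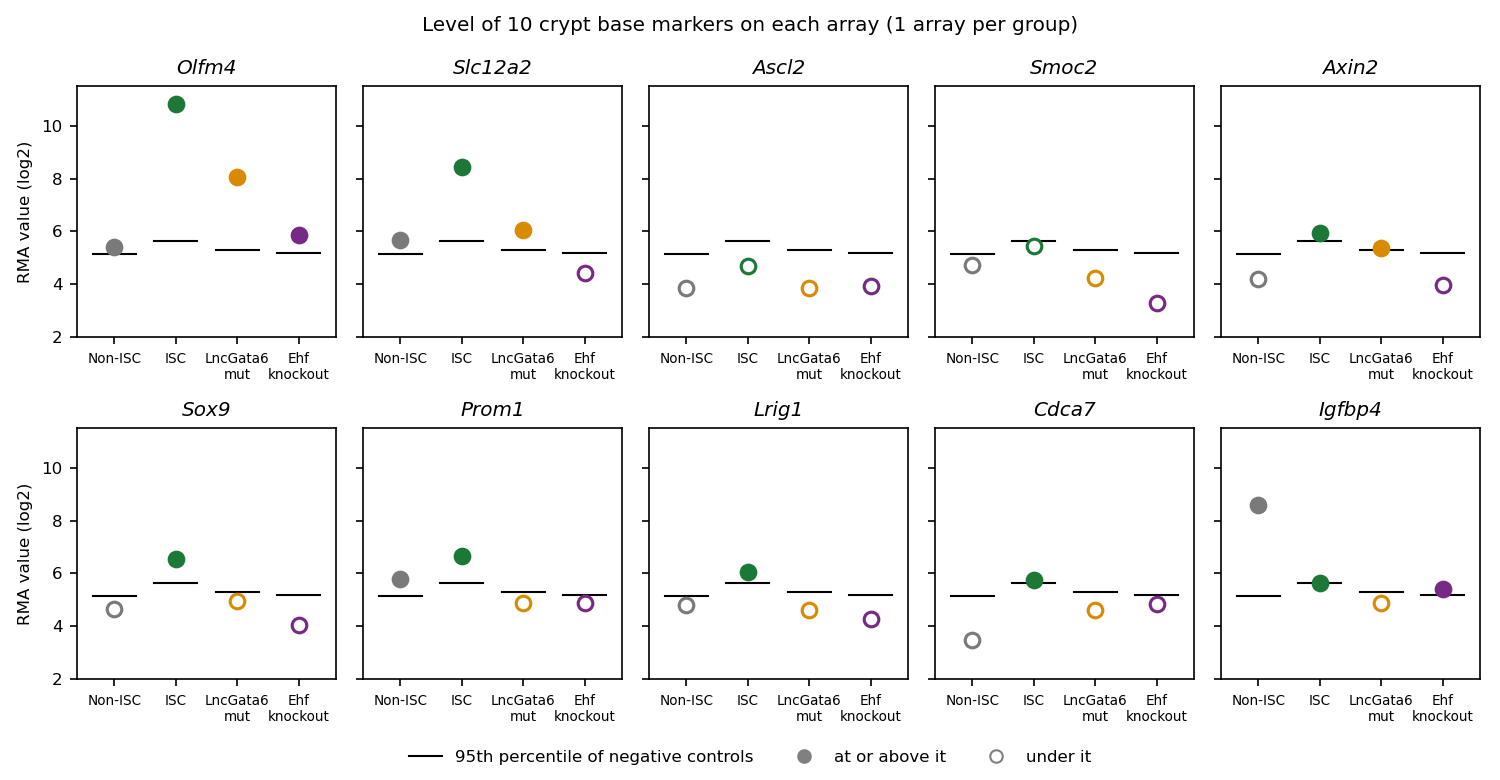
Log2 value of each marker on each of the 4 arrays (1 point per array, no replicates); the black bar is that array's 95th percentile of negative controls, filled points lie at or above it and open points under it. Olfm4 spans 10.81 on the ISC array to 5.42 on the Non-ISC array, while Igfbp4 peaks at 8.60 on the Non-ISC array.

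The secreted products differed most among themselves. Olfm4, a glycoprotein released by crypt base cells, was at 5.42 on the Non-ISC array, 10.81 on the ISC array, 8.06 on the LncGata6 mut array and 5.86 on the Ehf knockout array. It was the only marker detected on all 4 arrays, and its order was ISC, LncGata6 mut, Ehf knockout, Non-ISC. Smoc2, a matrix-associated calcium-binding protein, read 4.72, 5.46, 4.24 and 3.29 on the same arrays in that sequence. Its ISC value lay 0.17 under the control limit, so no fold can be given for it. Igfbp4, which binds insulin-like growth factors outside the cell, read 8.60, 5.64, 4.87 and 5.40. Its ISC value exceeded the control limit by only 0.01, and its highest value was on the array that held the liver and kidney transcripts; their part in it was not tested.

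Among the membrane proteins, Slc12a2, the basolateral sodium, potassium and chloride cotransporter of crypt cells, followed Olfm4 most closely in size. It was at 5.68 on the Non-ISC array, 8.42 on the ISC array, 6.06 on the LncGata6 mut array and 4.42 on the Ehf knockout array. Only the Ehf knockout value was under the control limit. Prom1, the pentaspan protein CD133 of apical protrusions, read 5.81, 6.67, 4.89 and 4.87 in the same sequence. It was detected on both wild-type arrays and on neither mutant array. Lrig1, a transmembrane protein that restrains EGF receptors, read 4.82, 6.04, 4.63 and 4.28, and was detected on the ISC array alone.

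The remaining markers were Ascl2, Sox9, Cdca7 and Axin2. Ascl2, the basic helix-loop-helix factor of stem cell identity, read 3.86, 4.68, 3.85 and 3.95 on the Non-ISC, ISC, LncGata6 mut and Ehf knockout arrays. The ISC value exceeded 88.8% of negative controls there and the other arrays' values 81.4% to 84.1% of theirs, so this feature gives little information on Ascl2. Sox9, the HMG-box factor of crypt progenitors and Paneth cells, read 4.68, 6.55, 4.97 and 4.05 and was detected on the ISC array alone. Cdca7, a zinc-finger chromatin protein induced in dividing cells, read 3.48, 5.76, 4.63 and 4.87. Its ISC value was detected by a margin of 0.13. Axin2, the scaffold of the beta-catenin destruction complex and a feedback target of Wnt, read 4.20, 5.92, 5.38 and 3.99. It was detected on the ISC and LncGata6 mut arrays, by margins of 0.30 and 0.07.

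The promoters of 4 markers with unlike patterns are shown to let their sequence be compared: Olfm4 (graded over the arrays), Axin2 (not called lower on the LncGata6 mut array), Cdca7 (not called lower on the Ehf knockout array) and Igfbp4 (highest on the Non-ISC array). They are the 250 bases before the RefSeq start on GRCm38.p6, 5′ to 3′ along the gene, at chr14:80000052-80000301 (plus strand) for Olfm4, chr11:108920099-108920348 (plus strand) for Axin2, chr2:72475969-72476218 (plus strand) for Cdca7 and chr11:99040994-99041243 (plus strand) for Igfbp4. Capitals mark CpG dinucleotides.
Olfm4: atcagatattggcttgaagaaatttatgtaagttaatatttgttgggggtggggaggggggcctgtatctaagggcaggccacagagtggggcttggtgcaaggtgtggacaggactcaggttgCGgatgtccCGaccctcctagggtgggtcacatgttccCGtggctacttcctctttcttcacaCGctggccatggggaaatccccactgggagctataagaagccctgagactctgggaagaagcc
Axin2: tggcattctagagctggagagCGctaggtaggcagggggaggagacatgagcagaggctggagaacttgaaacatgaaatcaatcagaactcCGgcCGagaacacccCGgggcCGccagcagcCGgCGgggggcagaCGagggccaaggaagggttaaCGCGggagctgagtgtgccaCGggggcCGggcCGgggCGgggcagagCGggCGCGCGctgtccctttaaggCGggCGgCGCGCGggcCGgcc
Cdca7: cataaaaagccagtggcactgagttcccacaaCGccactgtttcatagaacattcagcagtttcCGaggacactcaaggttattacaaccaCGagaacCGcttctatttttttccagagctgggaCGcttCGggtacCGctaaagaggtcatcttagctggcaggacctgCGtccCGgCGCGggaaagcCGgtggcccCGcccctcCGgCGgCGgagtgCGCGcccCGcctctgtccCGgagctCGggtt
Igfbp4: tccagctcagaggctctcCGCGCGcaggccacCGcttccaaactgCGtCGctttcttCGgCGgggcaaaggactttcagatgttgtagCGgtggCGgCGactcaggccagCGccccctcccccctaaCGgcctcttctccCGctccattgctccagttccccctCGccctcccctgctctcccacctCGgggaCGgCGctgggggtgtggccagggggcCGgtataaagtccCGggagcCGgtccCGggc

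The Olfm4 stretch has 4 CpGs, against 24 for Axin2, 21 for Cdca7 and 22 for Igfbp4. RefSeq windows of 300 bases (250 before and 50 after the start) were at hand for 7 of the 10 markers, as 8 windows, since Prom1 has a second start. The median over all 32851 such windows was 7 CpGs. Olfm4 (5) and the Prom1 windows (10 and 4) lay near it, and Ascl2 (23), Cdca7 (26), Igfbp4 (27), Axin2 (31) and Lrig1 (35) were CpG-rich. The TCF/LEF core CTTTGA, searched on both strands, was in 1 of the 8 marker windows, at the Prom1 start with 4 CpGs, and in 16% of all windows. The E-box CAGCTG, of the kind Ascl2 binds, was in 0 of 8 and in 16.3% of all windows. The ETS core GGAA, added to the search after the data had been seen because Ehf is an ETS factor, was in 7 of 8 (not Lrig1) and in 96.0% of all windows, so its presence separates no marker. These letter matches say nothing about binding.

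The comparison of stem with non-stem cells asked which genes mark the sorted Lgr5-GFP cells. On the ISC array 6 of 10 markers were called higher than on the Non-ISC array, where 3.83% of all genes were. They were Olfm4, Slc12a2, Cdca7, Sox9, Axin2 and Lrig1. Igfbp4 was called lower, as were 7.07% of all genes. The median difference of the 10 markers was 1.48, against -0.11 over all genes. Olfm4 differed by 5.39 (42.1-fold) and was the 16th largest positive difference of 30726. Slc12a2 was 6.71-fold higher. Sox9 was higher by at least 2.62-fold, and Lrig1, Axin2 and Cdca7 by bounds of at least 1.85, 1.70 and 1.52, so for these the size of the contrast rests on Non-ISC values that were not detected. Prom1 (difference 0.87, 1.82-fold), Ascl2 (0.82) and Smoc2 (0.73) were not called. Igfbp4 was 7.82-fold lower. General epithelial genes were higher on the ISC array too, by a median of 1.79, and Paneth genes by 5.86, while liver genes were lower by 8.84. Their part in the marker differences was not tested. With undetected dimmer values raised to the control limit, only Olfm4, Slc12a2 and Sox9 were called higher, against 2.47% of genes, and Igfbp4 lower, against 4.12%.

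**Figure D3:**
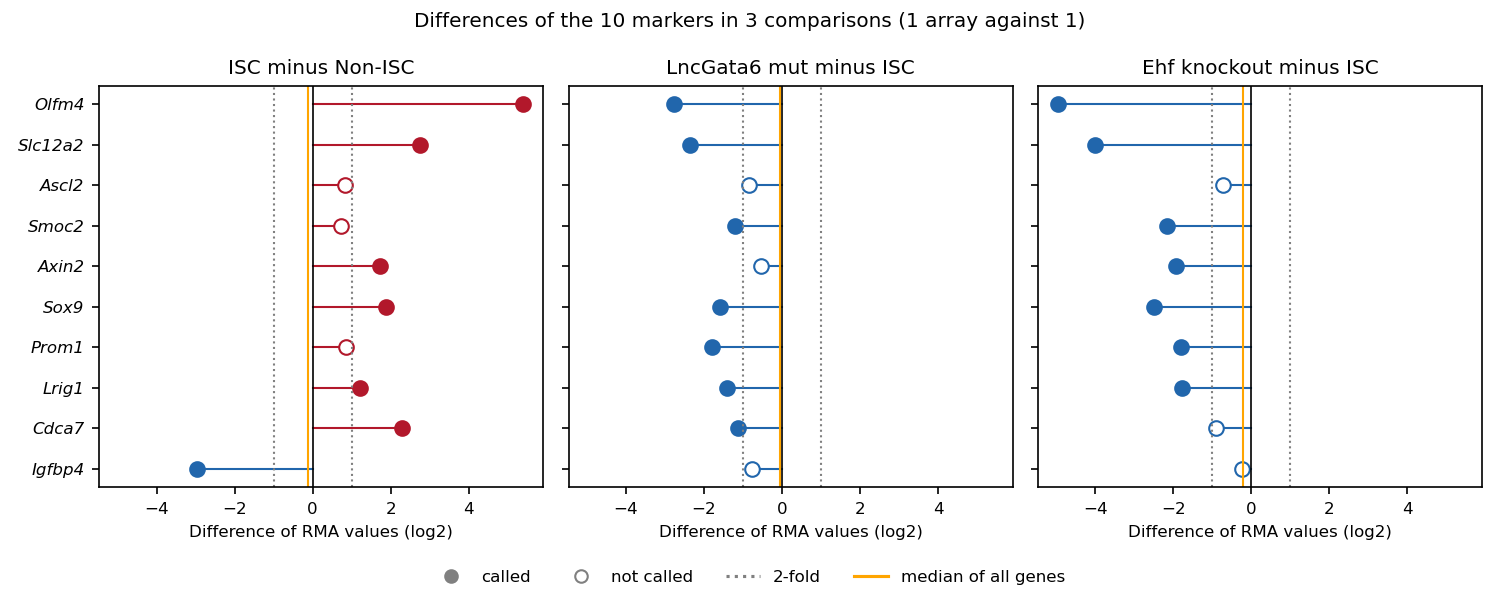
Difference of log2 values for the 10 markers in the 3 comparisons with the wild-type ISC array; filled points were called, open points were not, dotted lines mark 2-fold and the orange line the median of all genes. In the mutant panels all 10 markers lie left of 0 (Igfbp4 on the Ehf knockout array crosses 0 under 2 of 3 other scalings), and in the left panel Igfbp4 is the one marker below 0.

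For LncGata6, the question was what its mutation changes in stem cells. All 10 markers were lower on the LncGata6 mut array than on the ISC array, 7 of them by the call, against 3.01% of all genes, and 0 were called higher, against 2.82%. The 7 were Olfm4, Slc12a2, Prom1, Sox9, Lrig1, Smoc2 and Cdca7. The median difference was -1.31, against -0.06 over all genes. Olfm4 was 6.76-fold lower and Slc12a2 5.13-fold, both measured on either side, and ranked 40th and 85th among negative differences of all genes. Prom1 was at least 2.57-fold lower, Sox9 at least 2.36-fold, Lrig1 at least 1.66-fold and Cdca7 at least 1.36-fold. Smoc2 differed by -1.21 with neither value detected. Axin2 was 1.46-fold lower (-0.55), Igfbp4 differed by -0.77 and Ascl2 by -0.83, and these were not called. Of the 10 markers, 4 (Olfm4, Slc12a2, Prom1 and Sox9) were called lower once undetected values were raised to the control limit, against 2.01% of genes, and 0 higher, against 1.56%. General epithelial genes were mixed, with a median difference of 0.47. Krt18 (7.02 against 8.63), Krt19 (8.14 against 9.42), Elf3 (7.02 against 8.14), Tspan8 and Cldn3 were lower, and the rest of that list was higher. Median differences were negative for Paneth (-1.84), endothelial (-1.92), stromal (-1.11) and cell division genes (-1.13). Enterocyte genes were higher by a median of 3.84 and T and innate lymphoid genes by 3.79. The part of these in the marker values was not tested.

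For Ehf, all 10 markers were again lower than on the ISC array, though Igfbp4 (-0.24) turned to 0.11 under quantile normalization and 0.12 under cyclic loess, and 7 were called, against 5.28% of all genes, with 0 called higher, against 2.59%. The 7 were Olfm4, Slc12a2, Sox9, Smoc2, Axin2, Prom1 and Lrig1. The median difference was -1.87, against -0.20 over all genes. Olfm4 was 31.0-fold lower and Slc12a2 at least 9.38-fold. Prom1 was at least 2.80-fold lower, Sox9 at least 2.57-fold, Lrig1 at least 1.81-fold and Axin2 at least 1.66-fold. Smoc2 differed by -2.17 with neither value detected. Cdca7 (-0.89), Ascl2 (-0.73) and Igfbp4 (1.18-fold) were not called. Raised to the control limit, Olfm4, Slc12a2, Prom1 and Sox9 were called lower, against 2.65% of genes, and 0 higher, against 0.963%. General epithelial genes were lower by a median of 5.03 on this array, a larger difference than that of any marker. Neutrophil genes were higher by 6.84. The part of these changes in cell makeup in the marker values was not tested. Olfm4 and Igfbp4 were the 2 markers still detected there, by margins of 0.67 and 0.21.

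Both mutant comparisons use the same ISC array, so their shared direction is not independent evidence. Side by side, Axin2 differed from ISC by -0.55 on the LncGata6 mut array and -1.93 on the Ehf knockout array, Slc12a2 by -2.36 and -4.00, and Olfm4 by -2.76 and -4.95. Prom1 (-1.78 and -1.80) and Cdca7 (-1.13 and -0.89) were not detected on either mutant array, so the mutants cannot be ordered for them. Compared directly, the LncGata6 mut array was called higher than the Ehf knockout array in Olfm4 (4.58-fold), Slc12a2 (at least 1.83-fold) and Axin2 (at least 1.14-fold), against 6.17% of all genes, and lower in 0 markers, against 3.47%. Over the control limit 1 marker (Olfm4) was called higher, against 3.84%, and 0 lower, against 2.03%.

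The Non-ISC array, which does not enter those comparisons, allowed a second reading of the same mutant arrays. It alone held detected liver and kidney genes (medians 10.89 and 9.43). On the Ehf knockout array 0 of 14 general epithelial genes were detected. The part of such differences in cell makeup in the values below was not tested. On the LncGata6 mut array Olfm4 (6.22-fold) and Axin2 (at least 1.16-fold) were called higher than on the Non-ISC array, against 3.68% of genes, and Igfbp4 (at least 9.80-fold) was called lower, against 6.86%. Over the control limit Olfm4 was still called higher, against 2.57%, and Igfbp4 lower, against 4.47%. On the Ehf knockout array Cdca7 was called higher (4.87 against 3.48, neither detected), against 3.0% of genes, and Igfbp4 (9.23-fold) and Slc12a2 (at least 1.40-fold) lower, against 9.83%. Over the control limit 0 markers were higher, against 1.66%, and Igfbp4 alone was lower, against 6.11%. The Slc12a2 call ended under median centring (-0.96), quantile normalization (-0.64) and cyclic loess (-0.84). Under quantile normalization Olfm4 was called higher instead (1.08, from 0.44).

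Each of the 6 markers called higher on the ISC array can be placed on a scale on which its log2 value is 0% on the Non-ISC array and 100% on the ISC array. On the LncGata6 mut array Axin2 stood at 68.4%, Cdca7 at 50.4%, Olfm4 at 48.9%, Sox9 at 15.7%, Slc12a2 at 14.1% and Lrig1 at -15.6%. Of these, only Olfm4 and Slc12a2 were detected on all 3 arrays of the scale. On the Ehf knockout array Cdca7 stood at 60.9% and Olfm4 at 8.18%, and Axin2 (-11.9%), Sox9 (-33.4%), Lrig1 (-44.2%) and Slc12a2 (-45.8%) lay under the Non-ISC value. Over 3 other scalings the LncGata6 mut position of Olfm4 was 50.2% to 53.6%, that of Axin2 70.9% to 73.5% and that of Slc12a2 17.9% to 22.3%. The Ehf knockout positions moved more, to 13.3% to 18.2% for Olfm4, -33.7% to -21.7% for Slc12a2 and -16.6% to -1.27% for Sox9. Lrig1 crossed 0 on both mutant arrays, and Axin2 on the Ehf knockout array reached 4.85% to 17.1%. For Axin2, Sox9, Lrig1 and Cdca7 the Non-ISC end of the scale was not detected, so their percentages are distances from background signal and give no order among markers.

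**Figure D4:**
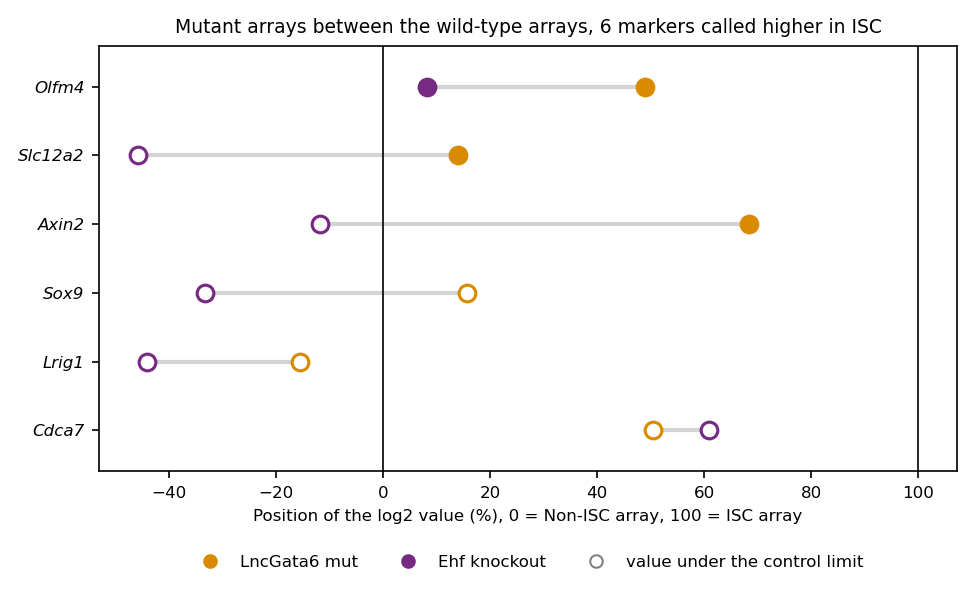
Position of each mutant array between the Non-ISC array (0%) and the ISC array (100%) on the log2 scale, for the 6 markers called higher on the ISC array; open points are values under the control limit. Olfm4 lies at 48.9% on the LncGata6 mut array and 8.18% on the Ehf knockout array, and the Non-ISC end of the scale was detected for Olfm4 and Slc12a2 only.

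Cdca7 is a gene of dividing cells, and others of that kind were read beside it. Of 30 measured division genes, 24 were called higher on the ISC than on the Non-ISC array, against 3.83% of all genes, with a median difference of 1.92. On the LncGata6 mut array 16 were lower, against 3.01% of all genes, and 0 higher (median -1.13). In the Ehf knockout comparison 0 were called lower, though 11 had a difference below 0, and 3 were called higher, against 2.59% of all genes (median 0.19): the ribonucleotide reductase subunit Rrm2 (at least 3.38-fold), the proliferation antigen Mki67 (2.35-fold) and the helicase subunit Mcm5 (at least 1.78-fold). Under the other scalings 4 to 6 were higher and still 0 lower. On the Ehf knockout array 0 of 14 general epithelial genes and all 8 neutrophil genes were detected. The part of cell makeup in the division values was not tested. Cdca7l, the paralog of Cdca7, read 4.41, 5.76, 4.95 and 5.09 on the Non-ISC, ISC, LncGata6 mut and Ehf knockout arrays, and was detected on the ISC array alone, as was Cdca7.

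Of 26 other measured genes of the crypt base stem cell signature, 13 were detected on no array. On the ISC array 5 of the 26 were called higher than on the Non-ISC array, against 3.83% of all genes, and 3 lower, against 7.07% (median 0.34). The 5 were Lgr5 (at least 19.0-fold), Clca3b (32.1-fold), Ets2 (2.68-fold), Tgif1 (at least 2.06-fold) and the potassium channel Kcnq1 (at least 1.40-fold), and the lower ones were Cyp2e1, Nrn1 and Fstl1, with Cyp2e1 at 11.67 on the Non-ISC array. On the LncGata6 mut array 5 were lower than on the ISC array, against 3.01% of all genes, and 0 higher (median -0.57). They were Lgr5 (at least 17.1-fold), Clca3b (2.86-fold), Tgif1 (at least 1.86-fold), Cdk6 (at least 1.27-fold) and Kcnq1 (at least 1.26-fold). The Ehf knockout array had 7 lower, against 5.28% of all genes, and 1 higher, against 2.59% (median -0.95). The lower ones included Clca3b (at least 54.7-fold), Lgr5 (at least 18.6-fold) and the vitamin D receptor Vdr (4.23 against 7.57). Also lower were Ets2 (at least 3.27-fold) and the R-spondin receptor Lgr4 (at least 2.51-fold). The urea transporter Slc14a1 was higher (6.21 against 4.24). Red cell genes were higher there too (Alas2 8.11 against 2.94, Slc4a1 8.23 against 3.51), and 0 of 14 general epithelial genes were detected. Liver genes were detected on the Non-ISC array only. The part of cell makeup in these values was not tested.

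Of 15 other measured Wnt target and feedback genes, 9 were detected on no array. Of the 15, 5 were called higher on the ISC than on the Non-ISC array, against 3.83% of all genes: Lgr5, Mmp7, Cdx1, Cd44 and Myc. Against the ISC array, 3 of the 15 were lower on the LncGata6 mut array (3.01% of all genes) and 3 on the Ehf knockout array (5.28%). Medians over the 15 were 0.03, -0.26 and -0.55 in the 3 comparisons. Lgr5 and the Paneth cell protease Mmp7 led all 3 counts. The homeobox factor Cdx1 was at least 1.42-fold higher on the ISC than on the Non-ISC array and at least 1.39-fold lower on the Ehf knockout array. The hyaluronan receptor Cd44 was at least 2.44-fold lower on the LncGata6 mut array. It read 6.76 on the Ehf knockout array beside 6.60 on the ISC array. The Ehf knockout array had all 8 neutrophil and all 8 macrophage genes detected, and 0 of 14 general epithelial genes. The part of cell makeup in these Wnt target values was not tested. Of the other feedback inhibitors, Nkd1 (3.87 to 4.40), Notum (3.63 to 4.91) and Znrf3 (3.56 to 4.78) were detected on no array.

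Lrig1 is also used as a marker of reserve stem cells. Among 9 such genes, Lrig1 included, 2 were higher on the ISC than on the Non-ISC array, against 3.83% of all genes, and 1 lower, against 7.07%. They were the keratin Krt19 (9.42 against 5.71), Lrig1 and the secreted chaperone Clu (6.48-fold lower). Called lower than on the ISC array were 3 on the LncGata6 mut array, against 3.01% of all genes. On the Ehf knockout array 4 were, against 5.28%. Krt19, Lrig1 and Clu were called lower on both, and Hopx (4.13 against 5.35, neither detected) on the Ehf knockout array. Krt19 was 2.44-fold (LncGata6 mut) and at least 18.8-fold (Ehf knockout) lower. It is also one of the general epithelial genes, of which 0 of 14 were detected on the Ehf knockout array. A list of EGF receptors and their ligands, with the receptor Met and the inhibitor Errfi1, was read beside Lrig1, which restrains EGF receptors. On the ISC array 4 of 10 measured genes were called lower than on the Non-ISC array, against 7.07% of all genes, and 0 higher. They included Egf (at least 8.77-fold), Egfr (at least 5.47-fold) and Met (at least 2.28-fold). Egf (8.76) and Egfr (8.08) were highest on the Non-ISC array, which also held the kidney and liver genes (Kap 12.30, Alb 12.52); their part was not tested. On the LncGata6 mut array 2 of 10 were higher than on the ISC array, against 2.82% of all genes. These were Erbb3 (2.50-fold) and Egfr (at least 1.47-fold). On the Ehf knockout array 5 of 10 were lower, against 5.28%, led by Erbb3 (at least 4.10-fold) and the receptor inhibitor Errfi1 (at least 5.18-fold). Lrig1 itself was lower on both mutant arrays.

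Igfbp4 shared its direction with the IGF system. Of 11 measured genes, 8 were called lower on the ISC than on the Non-ISC array, against 7.07% of all genes, and 0 higher, with a median of -2.02, among them Igfbp1 (at least 5.22-fold), the ligand Igf1 (at least 2.88-fold) and Igfbp5 (at least 4.47-fold). Igfbp1 and Igf1 are products of liver. Liver genes had a median of 10.89 on the Non-ISC array and were detected on no other array. Kidney genes had a median of 9.43 on the Non-ISC array. The part of either tissue in the IGF values was not tested. The only member called lower on the LncGata6 mut than on the ISC array was Igfbp7 (at least 12.8-fold), against 3.01% of all genes. Igfbp7 was also lower on the Ehf knockout array (at least 13.9-fold), and Igf1 was higher there (4.76 against 2.53, neither detected).

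To place each marker among all genes, the genes with the closest profile were found by the Euclidean distance between log2 values centred over the 4 arrays. The 3 nearest of 8190 candidates are given for the 8 markers detected on at least 1 array, and 4 arrays are too few to read more from them. Olfm4 lay nearest to Clps (0.51), Pla2g2a (0.70) and Rnase1 (0.76). Slc12a2 lay nearest to Lrrc31 (0.42), Ehf (0.68) and Nupr1 (0.77). For Axin2 they were Samd5, Ern2 and Cracdl (0.17 to 0.18), and for Sox9 Plce1, Galnt4 and Clca3a1 (0.29 to 0.30). Prom1 was nearest to Rapgef5 (0.14), Qser1 (0.20) and Siah2 (0.28), and Lrig1 to Pdlim3 (0.08), Sox4 (0.18) and Myh11 (0.19). Cdca7 had Slfn9 (0.13), Hells (0.15) and Bora (0.17), and Igfbp4 had Sult1a1 (0.16), Ppic (0.22) and Enpp6 (0.25). Candidates had only to reach the 75th percentile of genes on their brightest array, not the control limit. Samd5, Ern2, Cracdl, Plce1, Rapgef5, Siah2, Pdlim3, Myh11, Hells and Bora were detected on no array, so their profiles are of background-level signal. Among the markers themselves the closest pairs were Prom1 with Lrig1 (0.51) and Sox9 with Lrig1 (0.62), and no marker was among the 3 nearest genes of another.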

How the data were processed

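RNA from 4 sorted cell samples, 1 per group, was measured on Clariom D arrays. Each array feature has 1 log2 value as deposited by the authors. Per the submitters' processing notes, RMA and Affymetrix Power Tools were used. Their versions are not stated there. RMA compresses differences of dim features. The scale was taken from the values (-0.18 to 13.13). No genome build was named for the features.

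Of 72688 features, 31292 had 1 symbol after updating through RefSeq (GRCm38.p6), 1458 had several and 39938 were unnamed here. This gave 30726 genes, by the feature with the highest mean. Limits used 5222 negative controls. Differences, folds, calls and counts were computed in Python 3.11.15; alternative scalings used limma 3.58.1. Calling was tested on simulated data. Named genes are the 10 markers, Lgr5 and other genes that check the labels, up to 3 called genes of each pathway list in each direction, the leading cell type marker and the 3 nearest profiles; Wnt feedback inhibitors, Cdca7l, E protein genes, further called stem signature genes, Myc and Cd44 on other arrays were named after their values were seen. Markers and lists were chosen with earlier results of these data known. Alternatives were 3 scalings, 2 fold limits, 2 level limits, the mean of features, and, added after seeing the data, dimmer values raised to the control limit. Shared profiles were also ranked by the largest difference on any array.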

Additional observations from a re-analysis of the deposited data

How the results depend on the processing

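In the 3 comparisons with the ISC array every marker but Igfbp4 kept its direction under median centring, quantile normalization and cyclic loess. On the Ehf knockout array the uncalled Igfbp4 difference of -0.24 became 0.11 under quantile normalization and 0.12 under cyclic loess. Over all 6 comparisons, 88 counts under an alternative stayed within 1.5 times the reported one while 20 did not. The 88 include counts from averaging features, which could not change, and counts that were 0 under every setting. Median centring moved the median of all genes by 0.12 (ISC minus Non-ISC), 0.01 (LncGata6 mut minus ISC) and 0.18 (Ehf knockout minus ISC). With a 4-fold limit 3 markers were higher on the ISC than on the Non-ISC array (1.54% of all genes). Lower than on the ISC array were 2 on the LncGata6 mut (0.488%) and 4 on the Ehf knockout array (1.78%). Against the Non-ISC array, 1 was higher on the LncGata6 mut array (1.42%). On the Ehf knockout array 0 were higher (1.42%) and 1 lower (4.56%) than on the Non-ISC array. The LncGata6 mut array was higher than the Ehf knockout array in 1 marker (2.62%). With dimmer values raised to the control limit the counts were 3, 4, 4, 1, 0, 1 and 1 in the same order. The shares of all genes were 2.47%, 2.01%, 2.65%, 2.57%, 1.66%, 6.11% and 3.84%. A 1.5-fold limit gave 2 lower on the LncGata6 mut than on the Non-ISC array, against 10.7% of all genes. On the Ehf knockout against the Non-ISC array, lower counts were 1 under each of the 3 scalings, against 6.05% to 7.69% of all genes. Higher counts were 2 under quantile normalization (5.72%) and 0 with a level limit from negative controls (2.53%). The median difference of that comparison reversed from -0.58 to 0.024 under quantile normalization. Fewer genes can pass a stricter limit; the cause of the scaling changes was not tested. Each marker has 1 feature, so averaging features changed none of the marker calls. All 8 sets of nearest genes shared at least 2 of 3 members under the other measure. Low signal over background limits Ascl2 and Smoc2 on all arrays and 8 of 10 markers on the Ehf knockout array.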

Other observations

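Ascl2 acts as a partner of E proteins and is held back by Id proteins, so these were read beside its own undetected values. Of 10 such genes, all measured, 4 were called higher on the ISC than on the Non-ISC array, against 3.83% of all genes. Called lower there were 2, against 7.07%. On the LncGata6 mut against the ISC array 0 were called higher, against 2.82%, and 0 lower, against 3.01%. In that comparison cyclic loess and quantile normalization each called 1 higher, against 3.596% and 3.14% of all genes. The inhibitor Id1 was 4.75-fold higher on the ISC than on the Non-ISC array and Id2 was 2.68-fold lower. The secretory fate factor Atoh1 read 5.57 against 2.87, neither detected, and the Notch effector Hes1 was at least 1.94-fold higher. On the Ehf knockout array 4 were lower than on the ISC array, against 5.28% of all genes, led by Id1 (at least 7.03-fold). Called higher there were 0, against 2.59%. Under all 3 other scalings 1 gene, not 2, was called lower on the ISC than on the Non-ISC array, against 5.49% to 6.65% of all genes. The E protein genes Tcf3 (4.97 to 5.47), Tcf4 (4.47 to 5.28) and Tcf12 (5.07 to 5.96) varied by less than 1 over the 4 arrays. Cell makeup differed between the arrays, and its part in these values was not tested.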
